A study of Mus musculus with 10 samples.

Results

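The 6 genes described here, Ccr2, Plac8, Chil3, S100a4, Vcan and Fn1, are used as markers of blood monocytes. They were followed through 10 microarrays of microglia, the resident macrophages of the brain. The genes were given as a list, and each was read from the brightest probe set that the array's annotation assigned to that gene alone. All 6 were among the 19749 genes named in this way, each by 1 probe set. Microglia were sorted by flow cytometry from male mice of strain C57BL/6, either WT or Trem2-/-, with an age of 8 to 12 weeks per the labels. The same age range is given for all 10 libraries, so it can hardly be the age at sorting for mice fed for 12 weeks. Trem2 is a lipid-sensing receptor of microglia. Each genotype gave 5 libraries: an untreated control, cells after 4 and after 12 weeks on a diet with 0.2% cuprizone, and cells from mice returned for 2 weeks to normal food after either feeding time, called recovery. Cuprizone binds copper and makes oligodendrocytes die, so that myelin is lost. The labels do not state the sort gate, the part of Trem2 that was deleted or the number of mice per library.

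Classical monocytes are made in the bone marrow and enter inflamed tissue from the blood, largely through the chemokine receptor Ccr2. Once in the brain they become macrophages that can resemble microglia, and a sort for microglia can hold some of them. None of the 6 genes belongs to monocytes alone. Plac8 encodes a small cysteine-rich protein that is also made by granulocyte precursors. Chil3 encodes the chitinase-like lectin Ym1, made by neutrophil precursors and by alternatively activated macrophages as well. S100a4 is a calcium-binding protein of many moving leukocytes and of fibroblasts, Vcan a matrix proteoglycan that oligodendrocyte precursors also make, and Fn1 the matrix protein fibronectin, shared with macrophages, endothelium and fibroblasts.

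The whole table set the frame for these values. Array medians were alike, at 37.6 to 39.3 in linear intensity. Trem2 matched the genotype label in all libraries, with log2 intensity of 10.66 to 10.81 in WT and 7.26 to 7.85 in Trem2-/-. All 13 homeostatic microglia genes on the array, such as P2ry12 and Tmem119, lay above the table's median in every library. The submitters' sample numbers fall into 2 runs: 6 libraries with both controls and everything fed for 4 weeks, and 4 libraries with everything fed for 12 weeks. Feeding time and run of sample numbers therefore cannot be told apart. If the age given is that at the start of feeding, mice fed for longer were also older at sorting. Recovery mice were then older than those on cuprizone, and age cannot be told apart from feeding time or phase. The Trem2-/- library titled 12 weeks on cuprizone has a time label of 4 weeks, and its title was followed. Each condition of a genotype has 1 library, and nothing says how many animals it came from. The p-values from limma below thus measure only the spread between these libraries, which may be technical. Log2 intensities are compared between libraries within a gene, never between genes.

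Of the 6 genes, 5 passed the filter on low levels, which asked for 2 or more libraries above the table's median of 5.27 (log2). Vcan did not pass: it lay below that median in all 10 libraries. The 5 others ranged widely. The SD of Chil3 over the 10 libraries, 1.52, exceeded that of 99.8% of the 10792 genes tested, and the SD of Ccr2, 0.67, that of 97.9%. The 6 genes did not follow 1 course, as the plot of levels by library shows.

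**Figure D1:**
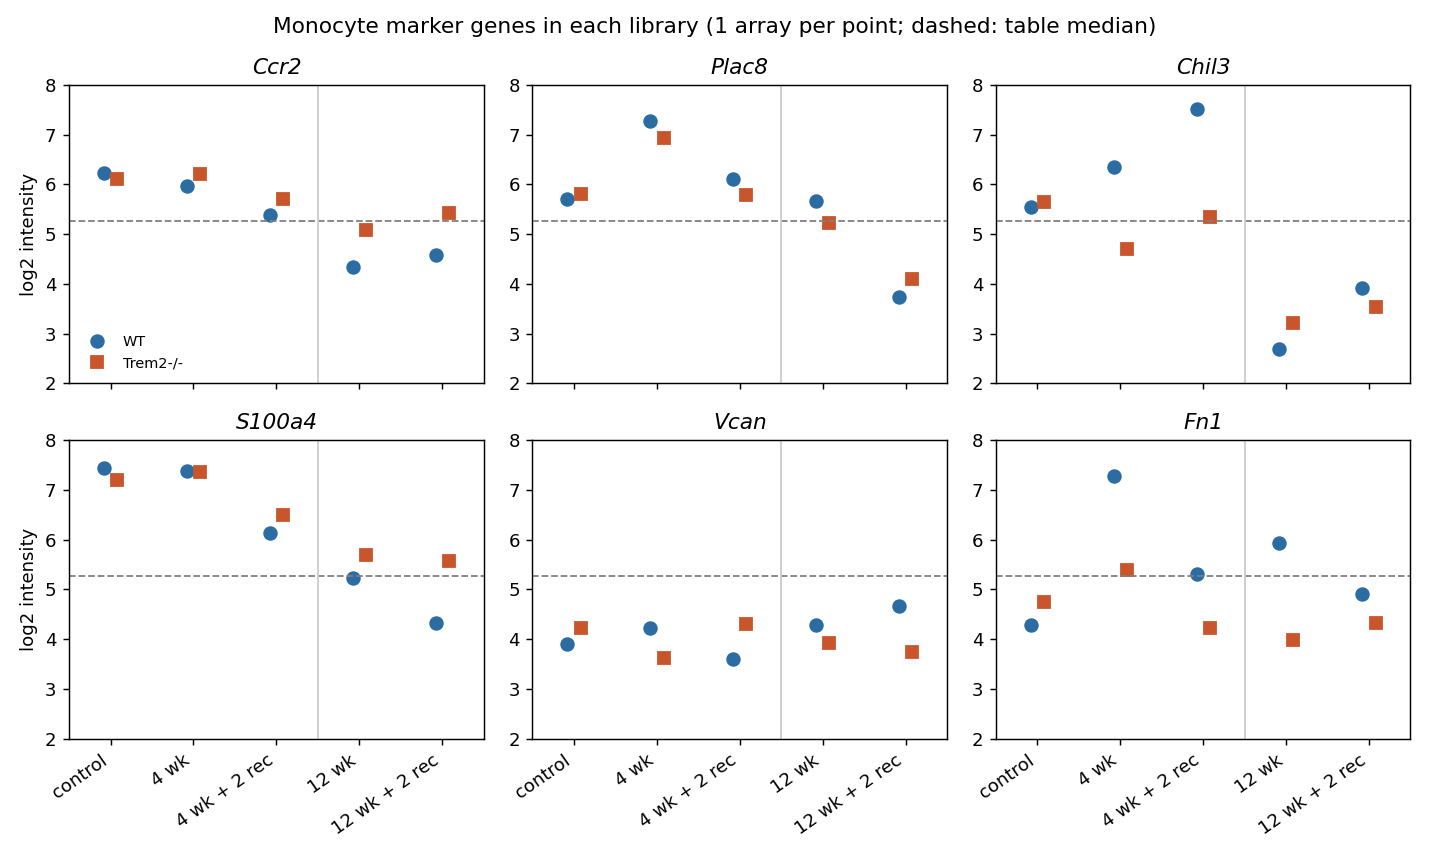
Log2 intensity of each of the 6 genes (vertical axis) in the 5 conditions (horizontal axis), 1 point per library, circles for WT and squares for Trem2-/-. The dashed line is the table's median of 5.27 and the grey vertical line separates the 2 runs of sample numbers. Chil3, S100a4 and Plac8 lie lower in every library to the right of the grey line than in any to its left, Fn1 peaks in WT libraries on cuprizone, and Vcan stays under the dashed line.

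Ccr2, the receptor for the monocyte attractants Ccl2, Ccl7 and Ccl12, measured 6.23 in the WT control, 5.98 after 4 weeks of cuprizone, 5.39 after recovery from it, 4.34 after 12 weeks and 4.58 after recovery from those. The Trem2-/- libraries in the same order measured 6.12, 6.21, 5.70, 5.08 and 5.43. The controls and the 4-week libraries were the 4 highest, and both WT libraries of the 12-week feeding the 2 lowest. First and second run overlapped, because the Trem2-/- recovery library of the second run, at 5.43, lay above the WT recovery library of the first run, at 5.39.

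S100a4 had a like order. It measured 7.44, 7.38, 6.14, 5.22 and 4.33 in the WT control, 4 weeks, 4 weeks with recovery, 12 weeks and 12 weeks with recovery, and 7.19, 7.36, 6.49, 5.69 and 5.57 in the matching Trem2-/- libraries. The controls and both libraries on cuprizone for 4 weeks lay within 0.24 of each other, and each first-run recovery library lay lower than these 4. Every library of the second run was lower still, with no overlap.

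Plac8 was highest in the 2 libraries fed for 4 weeks. Its levels were 5.70, 7.28, 6.11, 5.66 and 3.73 in the WT libraries in the order above and 5.81, 6.93, 5.78, 5.23 and 4.10 in the Trem2-/- libraries. In each genotype and at each feeding time the recovery library was lower than the library on cuprizone. The 2 recovery libraries of the second run were the lowest of all 10.

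Chil3 was the gene with the widest range, 4.83 on the log2 scale. WT libraries measured 5.55, 6.35, 7.52, 2.69 and 3.92 in the order above, and Trem2-/- libraries 5.65, 4.69, 5.34, 3.22 and 3.54. The WT library in recovery after 4 weeks stood highest, and all 4 libraries of the second run lay below 4, near background. Its near relative Chil4 was on the array too and never rose above 3.77, so it did not share this range. How far the probes of the 2 genes cross-react was not tested.

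Fn1 had its 2 highest values in the WT libraries on cuprizone. It measured 4.28, 7.28, 5.32, 5.93 and 4.90 in WT in the order above, against 4.75, 5.40, 4.22, 3.98 and 4.33 in Trem2-/-. The WT library at 4 weeks was the highest and the WT library at 12 weeks the next. In Trem2-/- cells only the 4-week library exceeded the table's median.

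Vcan, with 3.91, 4.23, 3.61, 4.29 and 4.67 in WT and 4.22, 3.62, 4.30, 3.91 and 3.73 in Trem2-/-, kept to a range of 1.06 near background. Without the filter, limma gave it a difference of 0.21 ± 0.21 (SE) between 12 and 4 weeks (adjusted p = 0.546) and -0.18 ± 0.20 between genotypes (adjusted p = 0.875). No level of Vcan is read from values this low.

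The first comparison asked whether the genes differed by feeding time, over the 8 cuprizone and recovery libraries with genotype and phase held as a block. All 5 tested members fell at 12 weeks, where limma called 20.3% of all tested genes, 12.1% lower and 8.22% higher. Chil3 fell by 2.63 ± 0.34 (adjusted p = 0.00136), a 6.21-fold difference, from a mean of 5.98 ± 1.23 (SD, n = 4) to 3.34 ± 0.52. The 12-week libraries measured 2.69 to 3.92 for Chil3, near background, so the size of this fall is uncertain. Chil3 passed the filter on low levels through first-run libraries alone. Plac8 fell by 1.84 ± 0.14 (adjusted p = 0.00015), from 6.52 ± 0.70 to 4.68 ± 0.91. S100a4 fell by 1.64 ± 0.18 (adjusted p = 0.000612), from 6.84 ± 0.62 to 5.20 ± 0.61, and Ccr2 by 0.96 ± 0.19 (adjusted p = 0.00871), from 5.82 ± 0.35 to 4.86 ± 0.49. Each of these 4 was lower at 12 weeks in all 4 pairs of libraries, as were 24.5% of tested genes. Fn1 fell by 0.77 ± 0.23 (adjusted p = 0.0434) and was lower in 3 of 4 pairs. Some 12-week levels were as near background as those of Vcan. They were 3.73 and 4.10 for Plac8 in recovery, 4.34 and 4.58 for Ccr2 in WT, and 4.33 for S100a4 in WT recovery. For Fn1 they were 3.98 and 4.33 in Trem2-/-. The sizes of these falls are therefore uncertain too. In bulk RNA, fewer cells of a type and less RNA per cell cannot be told apart.

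The groups did not separate for every member. Of the 6 members, 3 (Chil3, Plac8 and S100a4) had all 4 libraries of 12 weeks below all 4 of 4 weeks, which 14.1% of tested genes did. The same 3 had the whole second run below the whole first run, controls included, as 11% of genes did, and no library of the second run is a control or a 4-week library. The call of Fn1 was lost without any 1 of the 4 libraries on cuprizone (-0.58 or -0.55, adjusted p of 0.167 or 0.16). When the Trem2-/- library with the discordant time label entered as a 4-week library, Plac8 and Chil3 passed and Ccr2 (-0.90, adjusted p = 0.122), S100a4 (-1.63, adjusted p = 0.0625) and Fn1 (-0.55, adjusted p = 0.354) did not.

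Markers of other cells moved with this drop. Neutrophil genes had the lowest median of the lists: all 10 tested members of 13 on the array were called lower, with a median of -3.62 against -0.04 for all genes. Of these, Ngp, Ltf, Lcn2, Retnlg, Mmp9, Elane and Mpo lay under the table's median throughout the second run. They passed the filter through first-run libraries alone, so the count of lower genes is partly set by the filter. S100a8 and S100a9, the subunits of calprotectin, fell by 6.63 ± 0.59 (adjusted p = 0.000267) and 6.44 ± 0.39 (adjusted p = 5.75e-05), and the granule genes Lcn2, Ngp and Camp had differences of -4.12, -4.04 and -3.37, all called. The summed linear intensity of the neutrophil list was 4784 to 14327 in the first run and 274 to 434 in the second. Border macrophage genes, which mark macrophages of the meninges and vessels, also fell, with 10 of 13 tested genes called lower and a median of -1.12. Among them Cd163, a scavenger receptor, fell by 1.65 ± 0.16 (adjusted p = 0.000349), and Mrc1, the mannose receptor, fell by 1.15 ± 0.11 (adjusted p = 0.000403). The border macrophage list summed to 2075 to 5554 in the first run and 2336 to 2616 in the second. These ranges overlapped only through the Trem2-/- control, at 2075. The libraries fed for 4 weeks, with or without recovery, summed to 4916 to 5554, above all those of 12 weeks. What part these cells have in the drop of the monocyte markers was not tested.

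Further genes of monocytes were counted in the same way. Of the 27 on the array 19 were tested, 15 had lower values, 7 were called lower and 0 higher, and the median was -0.32. Ifitm6 fell most, by 2.88 ± 0.23 (adjusted p = 0.00015), followed by haptoglobin (Hp, 1.56 ± 0.34, adjusted p = 0.0128) and Ms4a6c (0.81 ± 0.20, adjusted p = 0.0192). Hp and Ifitm6 are also made by neutrophils. Both lay under the table's median throughout the second run, so they passed the filter through first-run libraries alone. The integrin subunit Itga4, which lets monocytes hold on to endothelium and to fibronectin, fell by 0.81 ± 0.14 (adjusted p = 0.00517), while its relative Itga5, the subunit of the main fibronectin receptor, rose by 1.82 ± 0.15 (adjusted p = 0.000171). Of the 10 tested S100 genes 9 had lower values and 5 of these passed, namely S100a4 itself, S100a8, S100a9, S100a6 (3.21 ± 0.40, adjusted p = 0.00117) and S100a11 (0.90 ± 0.12, adjusted p = 0.00168).

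Of the homeostatic microglia genes 4 of 13 were called lower, with a median of -0.17. Sall1, a transcription factor of microglia, fell most, by 0.72 ± 0.11 (adjusted p = 0.00322). Dendritic cell genes had 2 of 7 called lower: Cd209a, which monocyte-derived cells also express (-0.86 ± 0.19, adjusted p = 0.0141), and Siglech, which is a microglia gene as well (-0.51 ± 0.10, adjusted p = 0.00998). Of the T and NK cell list 3 of 10 genes on the array were bright enough to test, and Nkg7 fell by 0.76 ± 0.21 (adjusted p = 0.0319). The defining gene Cd3d of that list stayed under the table's median in all libraries, while Cd3e measured 5.23 to 5.77 in the first run and 4.71 to 5.54 in the second (-0.12 ± 0.19, adjusted p = 0.685). The fibroblast list, of interest for S100a4 and Fn1, had 1 of 3 tested genes called higher (Col1a1, 0.45 ± 0.13, adjusted p = 0.0361) and 0 called lower. The endothelial list had 0 of 3 called, and the oligodendrocyte precursor list, which holds Vcan, 0 of 2. Of the astrocyte list 2 of 4 were called lower, led by Aldoc (-1.08 ± 0.22, adjusted p = 0.00956). The defining genes Gfap and Aqp4 of astrocytes, Pdgfra of oligodendrocyte precursors, Cldn5 of endothelium and Cd79a of B cells stayed under the table's median in all libraries, but Pecam1 and Cd79b lay above it in all. B cell genes had 0 of 2 called, and 0 of 2 erythroid genes on the array were bright enough to test.

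**Figure D2:**
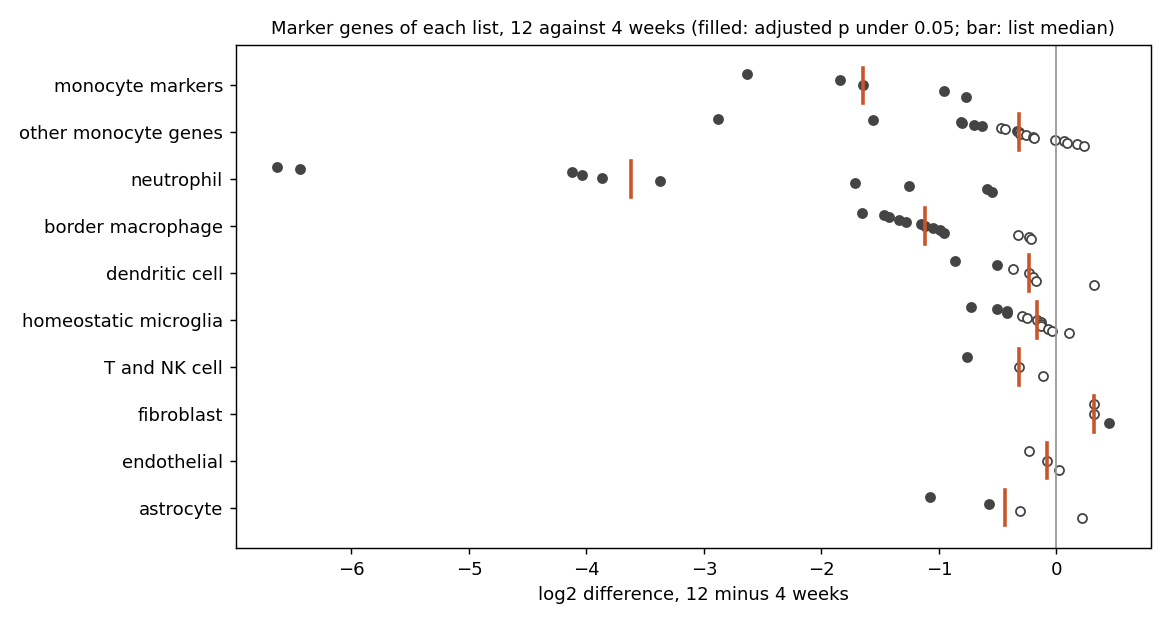
Log2 difference between 12 and 4 weeks (horizontal axis) of each tested gene in 10 marker lists (rows), over the 4 libraries of each feeding time. Filled points had an adjusted p under 0.05 and bars are list medians. The median was -1.64 for the 5 tested monocyte markers, -3.62 for neutrophil, -1.12 for border macrophage and -0.17 for homeostatic microglia genes.

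The feeding time difference was compared between genotypes and between phases. With limma 0 genes passed for either term, with 465 genes at an unadjusted p under 0.05 by genotype and 579 by phase, and other settings gave 0 too. Chil3 fell less in Trem2-/- cells, by -1.48 on cuprizone and -1.80 in recovery against -3.66 and -3.60 in WT, in value only: the difference of 1.99 ± 0.32 had an unadjusted p of 0.000175 and an adjusted p of 0.947. The 12-week levels of Chil3 behind these values lay near background. Neutrophil genes moved with Chil3, with 10 of 10 values above 0 for this term, 0 called and a median of 1.46, and their part in the Chil3 value was not tested. These genes share libraries, so their values are not independent. Their second-run levels also reached background, down to 3.01 for S100a8 and 3.47 for Lcn2. Ccr2 had 12 minus 4 week values of -1.64 and -1.13 on cuprizone and of -0.80 and -0.27 in recovery, WT first, a difference between phases of 0.85 ± 0.27 (adjusted p = 0.848). For Fn1 the difference between phases was 1.23 ± 0.43 (adjusted p = 0.859), since its 12 minus 4 week values were -1.35 and -1.42 on cuprizone and -0.42 and 0.10 in recovery. The terms of Plac8 and S100a4 had adjusted p-values of 0.926 and above.

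The 3 members without overlap between the feeding times are shown with sequence from the 250 bases before a start site. They were picked because each lay lower throughout the second run than in the first, as did 11% of tested genes. The stretches of S100a4 and Chil3 hold all 250 bases. That of Plac8 holds the first 202 and leaves out the 48 nearest the start site, which lie inside the annotated span of the gene. The sequences are from RefSeq on GRCm38.p6, 5′ to 3′ on the gene's strand, outside the gene's annotated span. Of the 6 members, 5 had a promoter in the table used, with 6 windows in all. Capitals mark matches, on both strands, to the PU.1 core GAGGAA, the TATA box TATAAA, or the RUNX motif TGTGGT. The RUNX motif is read as ACCACA where it lies on the other strand. The CEBP motif TTGCNNAA and the AP-1 motif TGANTCA were searched too. The S100a4 stretch is chr3:90603520-90603769 on the plus strand, that of Plac8 chr5:100572254-100572455 and that of Chil3 chr3:106167565-106167814, both on the minus strand.
S100a4: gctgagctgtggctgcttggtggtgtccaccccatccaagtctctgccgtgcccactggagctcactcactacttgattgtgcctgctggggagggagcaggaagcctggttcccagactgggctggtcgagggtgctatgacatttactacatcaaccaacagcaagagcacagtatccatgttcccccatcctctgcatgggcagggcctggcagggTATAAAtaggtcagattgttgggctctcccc
Plac8: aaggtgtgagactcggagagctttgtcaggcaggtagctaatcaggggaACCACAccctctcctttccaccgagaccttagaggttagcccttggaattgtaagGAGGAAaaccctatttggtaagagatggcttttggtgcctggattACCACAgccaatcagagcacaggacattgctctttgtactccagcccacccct
Chil3: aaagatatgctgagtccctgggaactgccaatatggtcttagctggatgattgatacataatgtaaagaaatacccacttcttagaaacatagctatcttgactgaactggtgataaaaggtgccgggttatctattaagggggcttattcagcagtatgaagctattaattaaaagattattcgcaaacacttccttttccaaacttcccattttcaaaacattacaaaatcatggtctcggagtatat

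Over all 250 bases before these start sites, Plac8 held 2 PU.1 cores and 2 RUNX motifs, S100a4 a TATA box 31 bases before the start site, and Chil3 none of the 5 motifs, so that the 3 genes shared none. The PU.1 core of Plac8 at 15 bases before the start lies in the bases not shown. A second window of Plac8, also not shown, held 1 CEBP motif, 12 bases before its start. In windows of the same 250 bases, 23.3% of the 32851 promoters in the table held the PU.1 core, 14% the RUNX motif, 12.4% the TATA box, 9.56% the CEBP motif and 6.75% the AP-1 motif. The TATA box was added after the sequences had been seen. These matches describe letters in a window and show no binding.

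Recovery was then set against cuprizone, over the same 8 libraries with genotype and feeding time held as a block, so that each pair lies in 1 run. No gene passed (limma, 0% called either way, 597 genes at an unadjusted p under 0.05). Plac8 came nearest among the members, with -1.34 ± 0.15 (adjusted p = 0.117). It was lower in recovery in 4 of 4 pairs, with -1.16 and -1.15 at 4 weeks and -1.93 and -1.12 at 12 weeks, WT first, as were 7.18% of tested genes. The recovery levels of Plac8 at 12 weeks lay near background. Plac8 was also the 1 gene that passed with 16 added to intensities before log2 (-0.96, adjusted p = 0.0359) and with limma's trend and robust options (adjusted p = 0.0211).

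S100a4 was lower in recovery in 4 of 4 pairs as well (-0.78 ± 0.17, adjusted p = 0.873), with -1.24 and -0.87 at 4 weeks and -0.89 and -0.12 at 12 weeks. Chil3 went the other way, higher in 4 of 4 pairs (0.84 ± 0.16, adjusted p = 0.873), as were 6.16% of tested genes. Its paired values were 1.16 and 0.64 at 4 weeks and, near background, 1.23 and 0.32 at 12 weeks, WT first. The WT recovery library after 4 weeks, highest for Chil3, also had the highest neutrophil sum. That sum was 14327, against 4784 to 7370 in the other first-run libraries. The same library enters the control and genotype values of Chil3 below, and the part of neutrophils in them was not tested. Fn1 was lower in 3 of 4 pairs (-0.95 ± 0.30, adjusted p = 0.873), the exception being Trem2-/- at 12 weeks. Both levels of that pair lay below the table's median. Ccr2 had -0.12 ± 0.17 (adjusted p = 0.944), with lower values in recovery in the first run (-0.55) and higher ones in the second (0.30). The other values within runs were -1.16 and -1.53 for Plac8, -1.05 and -0.51 for S100a4, 0.90 and 0.77 for Chil3, and -1.57 and -0.34 for Fn1, first run named first.

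Against controls, the 6 libraries of the first run were compared with genotype as a block. After 4 weeks of cuprizone 1 of 5 tested members passed: Plac8 rose by 1.35 ± 0.16 (adjusted p = 0.0455), a 2.54-fold difference, where limma called 0.269% of genes, 0.259% higher and 0.00927% lower. It was higher than the control by 1.58 in WT and by 1.12 in Trem2-/-. The call rested on these few arrays, with 1.12 (adjusted p = 0.125) without the WT control and 1.23 (adjusted p = 0.117) without the WT library on cuprizone. Fn1 measured 1.82 ± 0.46 (adjusted p = 0.289), with a WT level of 7.28 against 4.28 in the control and a smaller difference of 0.65 in Trem2-/-. Without 1 library the Fn1 difference ranged from 0.85 to 2.80, with 2.80 or 2.61 without the Trem2-/- control or cuprizone library. Ccr2 (-0.08 ± 0.15), S100a4 (0.06 ± 0.17) and Chil3 (-0.07 ± 0.46) had adjusted p-values of 0.894 or more, and Chil3 was higher than the control in WT (0.81) and lower in Trem2-/- (-0.95). The sign of the S100a4 value turned with quantile normalization.

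Attractants and growth factors of monocytes were counted in the same libraries. Of 8 tested all had higher values than in controls and 2 passed, Ccl5 (1.94 ± 0.21, adjusted p = 0.0343) and the Ccr2 ligand Ccl7 (1.87 ± 0.16, adjusted p = 0.0219), with a median of 0.84 against 0.02 for all genes. Of the other monocyte genes 15 of 19 had higher values and 0 passed, with a median of 0.37, led by Ifitm3 at 1.23 ± 0.23 (adjusted p = 0.164). Border macrophage genes had 12 of 13 higher and 8 called higher (median 1.46), among them Cd163 at 1.68 ± 0.14 (adjusted p = 0.0219). Neutrophil genes had 3 of 10 higher and 0 called (median -0.14). The part of border macrophages in the Plac8 value was not tested.

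In recovery after 4 weeks, limma called 0.0649% of genes higher than in the same controls and none of the members passed. S100a4 measured -0.997 ± 0.167 (adjusted p = 0.171), with -1.29 in WT and -0.70 in Trem2-/-, and passed with limma's trend and robust options (adjusted p = 0.00569). Ccr2 measured -0.63 ± 0.15 (adjusted p = 0.461) and Chil3 0.83 ± 0.46 (adjusted p = 0.797), the latter with 1.97 in WT and -0.31 in Trem2-/-. Plac8, at 0.19 ± 0.16 (adjusted p = 0.849), and Fn1, at 0.26 ± 0.46 (adjusted p = 0.94), lay nearer to the controls than in the libraries on cuprizone. Ccl7 was called higher here too (1.72 ± 0.16, adjusted p = 0.0297), as were 3 of 13 border macrophage genes. All 13 of these but Maf (-0.18) had higher values than in the controls. Libraries on cuprizone and in recovery share the 2 controls.

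**Figure D3:**
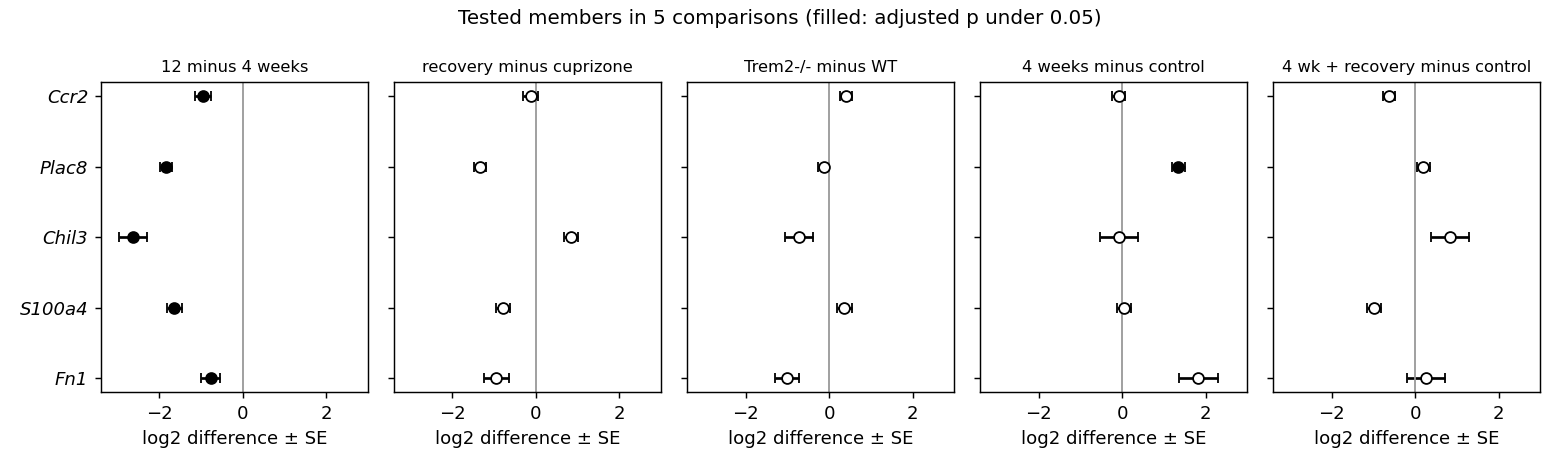
Log2 difference with its SE from limma (horizontal axis) for the 5 tested members (rows) in 5 comparisons (panels), filled where the adjusted p was under 0.05. All 5 are filled and negative for 12 against 4 weeks, Plac8 alone is filled at 1.35 for 4 weeks of cuprizone against control, and no other point is filled.

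The genotypes were compared over the 5 matched conditions, with condition as a block. No member passed, where limma called 0.259% of tested genes, 0.0741% higher and 0.185% lower in Trem2-/- cells. Fn1 was lower in Trem2-/- in 4 of 5 conditions, with -1.88 and -1.95 on cuprizone for 4 and 12 weeks and -1.09 and -0.57 in the matching recoveries, and it was higher by 0.47 in the control. Its mean difference was -1.01 ± 0.30 (adjusted p = 0.249), and -1.37 ± 0.21 (adjusted p = 0.021) without either control. Over all libraries left out 1 at a time, the Fn1 difference ranged from -1.37 to -0.77, with adjusted p-values up to 0.607. In the control and in recovery after 12 weeks, both Fn1 levels lay below the table's median. No direction is read from those pairs. The Trem2-/- levels on cuprizone for 12 weeks and in recovery after 4 weeks lay below it too, so the sizes of those Fn1 differences are uncertain. Ccr2 was higher in Trem2-/- in 4 of 5 conditions (0.40 ± 0.14, adjusted p = 0.329), by 0.23 and 0.31 in the first run and 0.74 and 0.85 in the second, with -0.11 in the control. S100a4 was higher in 3 of 5 (0.36 ± 0.18, adjusted p = 0.517), most in recovery after 12 weeks, by 1.24. Chil3 measured -0.72 ± 0.34 (adjusted p = 0.479), with -1.66 and -2.18 in the 4-week libraries and 0.10, 0.52 and -0.39 in the others, so that the mean was -1.25 in the first run and 0.07 in the second. The second-run levels of Chil3 lay near background, as did those of Ccr2 in WT and that of S100a4 in WT recovery. Plac8 measured -0.13 ± 0.13 (adjusted p = 0.782). Means within the first and second run were 0.14 and 0.80 for Ccr2, 0.03 and 0.85 for S100a4, -0.84 and -1.26 for Fn1, and -0.19 and -0.03 for Plac8.

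Whether recovery differed from cuprizone by genotype was tested too, and 0 genes passed (limma, 555 at an unadjusted p under 0.05). Other settings called up to 7 genes, with none of the 5 tested members among them. Fn1 had the largest value, 1.08 ± 0.46 (adjusted p = 0.956), with recovery minus cuprizone values of -1.96 and -1.02 in WT and -1.17 and 0.35 in Trem2-/-. Both levels behind the value of 0.35 lay below the table's median. The other members had adjusted p-values of 0.967 or more.

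Receptors and partners of the matrix proteins were compared between genotypes as well. Cd44, a matrix receptor of leukocytes that also binds hyaluronan, measured -0.93 ± 0.16 (adjusted p = 0.0539) over the 5 conditions and did not pass, nor did Tlr2 (-0.50 ± 0.14, adjusted p = 0.221) or Itga5 (-0.38 ± 0.18, adjusted p = 0.472). Of the 11 tested partners of fibronectin and versican, 7 had higher values in Trem2-/- and 0 were called. Of the 19 other monocyte genes 14 had lower values in Trem2-/- and 0 passed, with Ms4a4c at -1.04 ± 0.20 (adjusted p = 0.0814) and Ms4a6c at -0.86 ± 0.22 (adjusted p = 0.181). Of the attractants 8 of 8 had lower values and 0 passed, with a median of -0.09 and Csf1, the growth factor of macrophages, at -1.14 ± 0.25 (adjusted p = 0.111).

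Likeness of course was measured as the root mean square difference over the 10 libraries between log2 levels, each gene centred on its own mean. The genes share libraries and runs, and a small value says nothing of shared function. Fn1 was most like Crip1 (0.28), Capg (0.35) and Anxa2 (0.44), where the median over all tested genes was 0.97. Chil3 was most like Anxa1 (0.47), Ifitm6 (0.54) and Camp (0.55), a neutrophil granule gene, against a median of 1.44. S100a4 was most like Ccr2 (0.48), followed by Snora52 and Ppcdc (both 0.49, median 1.02). From the side of Ccr2 this was not so: Ccr2 lay nearest to Kif21b (0.25), Ints6l (0.25) and Dtx3 (0.27), with a median of 0.65. Plac8 lay nearest to Tomm22 (0.52) and to H2bc8 and Snora52 (both 0.54), with a median of 1.04. Vcan lay nearest to Kif1a, Tppp3 and Dcun1d5 (0.17 to 0.19, median 0.40), in a range too narrow to read.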

How the data were processed

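Per the labels' protocols, 2 ng of total RNA from sorted microglia was amplified and biotin-labelled as cRNA. The authors deposited linear intensity values, 1 per probe set and array. How these deposited intensities were background-corrected, summarized and normalized is not stated in the labels. Log2 was taken with no further scaling. Of 24567 probe sets, 21259 named 1 gene in the platform's annotation, 1274 several and 2034 were not listed there; for several probe sets of a gene (888 genes) the brightest was kept. Genes with 2 or more arrays above the table's median were tested (10792).

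Differences were tested with limma 3.58.1 in R 4.3.3 (lmFit, eBayes, Benjamini-Hochberg over all genes tested, threshold 0.05), with the blocks named in the report. The script was tested on simulated data. Alternatives changed the scaling, log offset (16), probe rule, filter, variance model and arrays used. Genes named were the 6 members, the 3 genes most like each, up to 3 genes per list with the largest differences, and the first 2 genes of lists of other cell types where they bear on a result, plus a few chosen after their values were seen (Chil4 and further called S100, neutrophil and dendritic cell genes). The members and lists were chosen with earlier results of these data known. The number of arrays limits the precision.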

Additional observations from a re-analysis of the deposited data

Results flagged for a closer look

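Fn1 lay on opposite sides of the control in the genotypes during recovery, in value only. Both WT recovery libraries lay above the WT control, by 1.04 and 0.62, and both Trem2-/- recovery libraries below their control, with -0.53 and -0.42. The means of these differences lie 1.30 apart, and this difference from single controls was not tested. In each genotype only the first value stays within the first run. The second value sets a second-run library against a first-run control, so run and feeding time enter it and the means. Of the libraries used, only the WT recovery library of the first run, at 5.32, lay above the table's median. No direction is therefore read from Fn1 here.

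Vcan was below the table's median in all 10 libraries, so no direction is read from it. On cuprizone, WT libraries lay 0.32 and 0.38 above their control and Trem2-/- libraries below theirs, with -0.60 and -0.31. The means lie 0.81 apart, and the difference was not tested. In each genotype the second value sets a second-run library against a first-run control, so run and feeding time enter it.

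Ly6c, the surface antigen that defines classical monocytes, is not among the tested genes because its probe sets name both Ly6c1 and Ly6c2. The first of these 2 probe sets measured 4.97 in the WT and 5.44 in the Trem2-/- control, against 6.17 and 5.84 after 4 weeks of cuprizone and 6.48 and 5.86 in recovery from it, WT first. All 4 libraries lay above both controls, the lowest by 0.40 over the higher control. Second-run libraries measured 4.35 and 4.53 on cuprizone and 5.77 and 4.14 in recovery. The second probe set did not separate from the controls, with 5.40 in the Trem2-/- recovery library of the first run against 5.75 in the WT control. Ly6c1 is also expressed by endothelial cells.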

How the results depend on the processing

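The fall of Chil3 and Plac8 at 12 weeks passed under all alternatives run, and those of Ccr2 and S100a4 under all but the relabelled library. Without 1 library each, Fn1 ranged from -1.06 to -0.55, Ccr2 from -1.19 to -0.73, Chil3 from -3.02 to -2.29, Plac8 from -1.92 to -1.66 and S100a4 from -1.88 to -1.47, and the count of 2194 genes from 1064 to 1621. With the conflicting library counted as 4 weeks it was 186 (-0.90 for Ccr2, -1.63 for S100a4, -0.55 for Fn1). Where a value turned or a count moved, the cause was not tested.

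The genotype count of 28 became 54 with 16 added, 44 without the filter, 62 with trend and robust options, 8 with the conflicting library as 4 weeks, 6 in the first and 60 in the second run (runs were added after seeing the data), and 8 to 103 without 1 library. Chil3 was 0.070 in the second run. Without 1 library S100a4 ranged from 0.14 to 0.51, Chil3 from -1.03 to -0.36, Plac8 from -0.25 to -0.050 and Ccr2 from 0.29 to 0.53 between genotypes, and none passed. Fn1 ranged from -1.37 to -0.77 and passed only without the WT or the Trem2-/- control. The recovery count of 0 became 1 with 16 added, with trend and robust options and in the second run, where Ccr2 was 0.30. Without 1 library Ccr2 ranged from -0.28 to 0.030.

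For 4 weeks against control the count of 29 was 93 with trend and robust options and 13 to 208 without 1 library. Plac8 ranged from 1.12 to 1.58, Fn1 from 0.85 to 2.80, Ccr2 from -0.27 to 0.11, Chil3 from -1.08 to 0.94 and S100a4 from -0.15 to 0.26. S100a4 was -0.0085 with quantile normalization. For recovery against control the count of 7 was 22 with array medians subtracted, 26 with 16 added, 4 with mean probes or no filter, 11 with a filter on means, 45 with trend and robust options and 0 to 62 without 1 library. Plac8 ranged from -0.038 to 0.42, Chil3 from -0.18 to 1.84 and Fn1 from -0.72 to 1.23.

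For the terms by phase and genotype no member passed. By phase, the feeding time term of Plac8 was 0.046 with 16 added and -0.74 to 0.0031 without 1 library, and that of Chil3 0.52 with the conflicting library as 4 weeks and -1.10 to 0.84. By genotype, it was -0.64 to 1.10 for Fn1 and -0.078 to 0.70 for Plac8. Recovery by genotype called 1 gene with array medians subtracted, 2 with 16 added, mean probes, no filter or a filter on means, and 7 with trend and robust options. Chil3 was 0.79 with the conflicting library as 4 weeks and -1.49 to 0.055 without 1 library, and Ccr2 -0.36 to 0.56. The labels number no replicates, so no fit with a replicate number as a block was run. The pairs in the report are libraries of matched condition.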
